A study of Homo sapiens with 6 samples.

Results

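The Fanconi anemia and homologous recombination genes are 39 genes whose products find, unhook and repair DNA interstrand crosslinks. They were taken by gene symbol from the 16798 coding genes of the table, and all 39 were found and had enough counts to be tested. Their RNA was measured in COV434, an immortalized human cell line that carries the label of granulosa cells, the cells that surround the oocyte in the follicle. The 3 control samples were wild-type cells without 4HC, and no source used here says whether they received a vehicle. The 3 samples of the other group, the 4HC group, were the same cells after 24 h in 15 µM 4HC (4-hydroxycyclophosphamide), the active form of cyclophosphamide (CTX). All 6 libraries come from 1 line, and nothing in the labels says that the 3 samples of a group were separate cultures, so that p-values measure the spread between these samples, which may be technical. Among the granulosa markers, only WT1 was abundant. Of the 10 markers in the table, 6 (FOXL2, FSHR, CYP19A1, NR5A1, STAR and GATA4) had at most 3 counts in any sample. INHA had 8 to 19 counts, INHBA 2 to 15 and AMH 63 to 106. WT1 was at 216 to 219 CPM (counts scaled to a library of 1000000 and normalized between libraries) in control. In 4HC it was at 169 to 174 CPM, a log2 fold change of -0.35. The libraries held 16133786 to 16702316 expected counts each.

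As background, 4HC breaks down to a mustard that links both strands of DNA. When a replication fork meets such a link, the anchors FANCM and FAAP24 bring in the Fanconi core complex. This complex, with the E2 enzyme UBE2T, attaches ubiquitin to the ID2 pair, FANCD2 and FANCI. Nucleases on the scaffold SLX4 then cut the link out, and the break that is left is repaired by homologous recombination. There the ends are resected, BRCA1, PALB2 and BRCA2 prepare the end for strand exchange, further proteins steady and drive that exchange, and the helicase BLM helps to undo the joined molecules. Many of these genes are transcribed mostly in dividing cells.

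In cells treated with 4HC, most of the genes were more abundant. Of the 39, 24 rose, 1 (FANCF) fell and 14 did not pass an adjusted p-value of 0.05 in edgeR's quasi-likelihood test. Over all 12368 genes tested, 36.4% passed, with 19.2% higher and 17.1% lower. The median log2 fold change of the 39 was 0.21, against 0.00 over all genes tested. The changes were small. The fold changes of the 24 genes that rose ran from 1.10 to 1.65, and no member reached a fold change of 2. In 27 members every 4HC sample was above every control and in 1 every 4HC sample was below, whereas over all genes tested these shares were 23.4% and 21.9%. Together the 39 genes took 0.161% ± 0.0014 of the counts in control and 0.205% ± 0.0023 in 4HC (SD, n = 3 per group). In bulk RNA, more cells in a state that expresses these genes and more RNA per cell cannot be told apart.

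**Figure D1:**
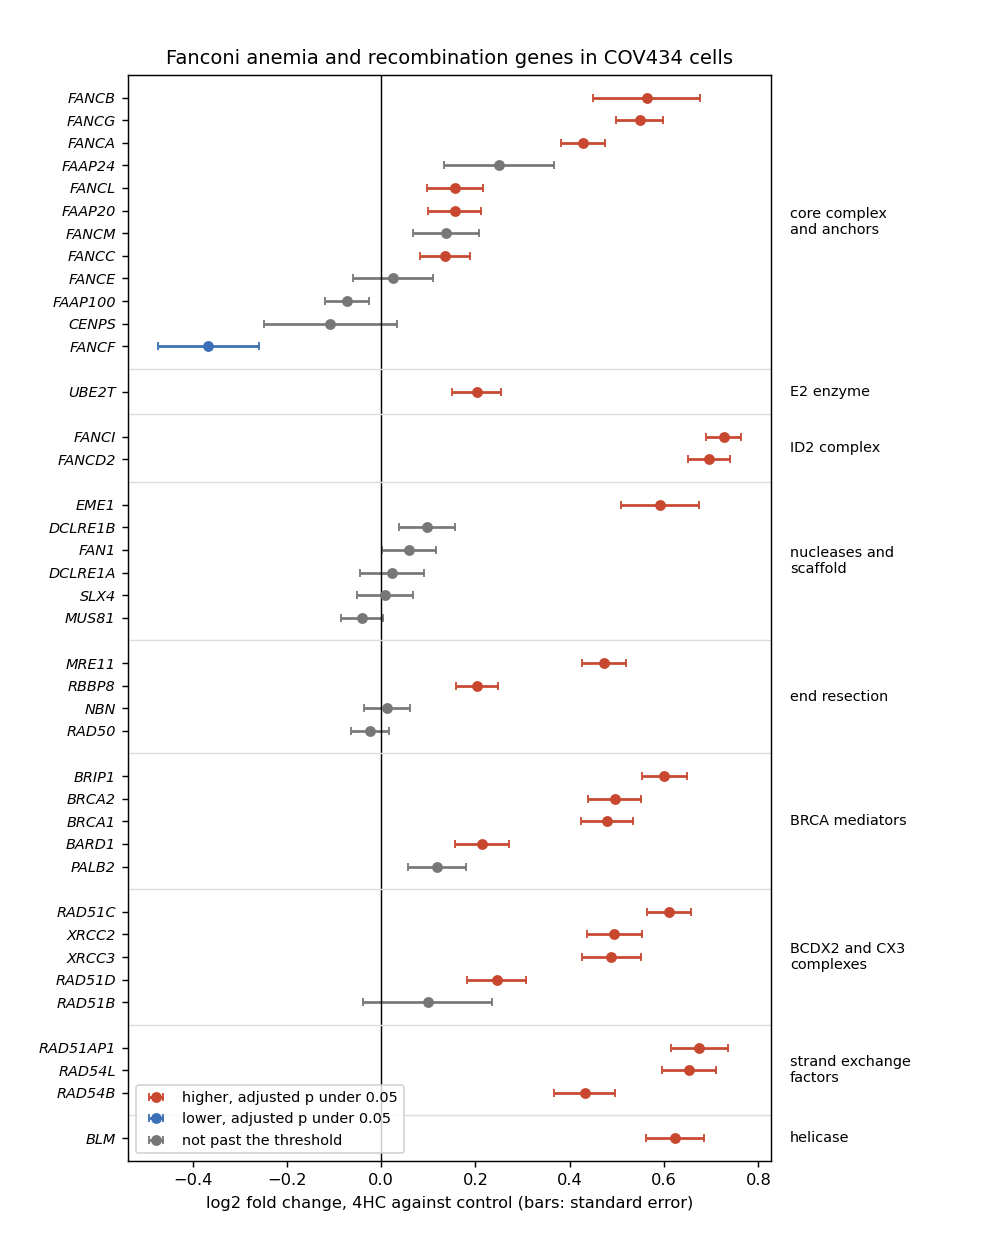
Log2 fold change (4HC against control, x axis) with its standard error for the 39 genes, grouped by role, with 3 samples per group. FANCI and FANCD2 lie farthest to the right, and FANCF is the only gene to the left of 0 that passed the threshold.

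The change differed in size between the steps of the pathway. Of the 12 genes of the core complex and its anchors, 6 rose and 1 fell, and their median log2 fold change was 0.15. Of the 20 ID2 and recombination genes, 16 rose and none fell, with a median of 0.48. The 4 end resection genes among them had a median of 0.11, and 2 of them rose. Of the 6 crosslink nucleases and their scaffold, 1 rose, with a median of 0.04. The mean log2 CPM over the ID2 and recombination genes was 5.37, 5.30 and 5.33 in the controls and 5.70, 5.77 and 5.78 in 4HC. Over the core complex it was 4.46, 4.46 and 4.51 in the controls and 4.59, 4.62 and 4.68 in 4HC. Over the crosslink nucleases and their scaffold it was 4.99, 5.00 and 5.08 in the controls and 5.16, 5.15 and 5.13 in 4HC. Each of these sets was higher in each 4HC sample than in any control. The differences on the log2 scale were 0.42 for the ID2 and recombination genes, 0.15 for the core complex and 0.12 for the nucleases. These are descriptions, as the lists were made with the values of these samples known.

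The 250 bases before the start of transcription are shown for the 4 genes with the largest changes among those that rose and had a promoter in the RefSeq table (GRCh38.p14), all on the plus strand. They are FANCD2 (chr3:10026187-10026436), RAD51AP1 (chr12:4538640-4538889), RAD54L (chr1:46247438-46247687, before the first of its 2 listed starts) and BLM (chr15:90717096-90717345). They were chosen by the size of their change, so that their similar factors follow from the choice. The capitals mark every match to the motifs CCAAT (the NF-Y type) and TTCCCGC (an E2F type) on either strand.
FANCD2: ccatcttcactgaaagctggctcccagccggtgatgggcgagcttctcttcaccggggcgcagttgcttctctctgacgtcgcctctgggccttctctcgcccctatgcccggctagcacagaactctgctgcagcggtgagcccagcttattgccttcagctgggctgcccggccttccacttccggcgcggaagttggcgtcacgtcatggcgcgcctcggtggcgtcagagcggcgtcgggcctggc
RAD51AP1: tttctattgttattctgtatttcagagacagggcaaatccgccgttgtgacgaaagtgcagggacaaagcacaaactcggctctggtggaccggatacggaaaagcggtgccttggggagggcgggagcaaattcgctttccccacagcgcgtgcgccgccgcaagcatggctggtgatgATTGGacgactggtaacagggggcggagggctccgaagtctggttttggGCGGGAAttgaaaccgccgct
RAD54L: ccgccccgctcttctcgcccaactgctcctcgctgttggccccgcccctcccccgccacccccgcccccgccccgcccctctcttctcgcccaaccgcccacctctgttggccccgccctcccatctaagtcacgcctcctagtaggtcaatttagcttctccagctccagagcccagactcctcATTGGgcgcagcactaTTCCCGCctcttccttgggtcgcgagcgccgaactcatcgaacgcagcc
BLM: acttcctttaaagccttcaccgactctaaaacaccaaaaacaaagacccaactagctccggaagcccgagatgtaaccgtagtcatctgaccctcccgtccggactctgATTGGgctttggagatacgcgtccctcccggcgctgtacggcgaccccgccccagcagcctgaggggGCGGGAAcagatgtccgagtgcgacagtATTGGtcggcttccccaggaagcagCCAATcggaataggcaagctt
RAD51AP1, RAD54L and BLM each held both motifs, and FANCD2 held neither. In RAD51AP1 the CCAAT match (ATTGG as printed) began 70 bases and the TTCCCGC match 21 bases before the start. In RAD54L they began 65 and 49 bases before it. BLM had 3 CCAAT matches, at 141, 46 and 21 bases, and its TTCCCGC match at 74 bases. Promoters were found for 36 of the 39 genes, and FANCI, NBN and RAD54B had none in the table.

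Of the 36 genes with a promoter, 9 had more than 1 listed start, and a match before any of these starts was counted. TTCCCGC, a motif picked after the values had been seen, was in 8 (BLM, BRCA1, FANCC, FANCG, FANCL, RAD51AP1, RAD51D and RAD54L). All 8 genes were among the 22 of the 36 that rose. The share that rose among all tested genes with a given motif was not computed, so no link is read from such counts. TTCCCGC was in 6.66% of all 27305 genes with a promoter and in 11.4% of those tested. The motif TTTNNCGC, another E2F type that can overlap TTCCCGC, was in 2 (FANCA and FANCC), against 7.15% of all and 11.7% of those tested. TTTGAA, the CHR type of genes used late in the cell cycle, was in 4 (BRIP1, FAAP24, FANCC and UBE2T), against 16.1% and 12.0%. CCAAT was in 15, of which 9 rose, against 37.0% and 42.1%. A match is a run of letters in the window and not a site shown to be bound.

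The ID2 pair had the largest changes of all 39 genes. FANCI (NCBI Gene 55215, chromosome 15, 89243949 to 89317261 of GRCh38) was at 114, 109 and 110.2 CPM in control cells, against 181, 185 and 187 CPM in 4HC. FANCD2 (NCBI Gene 2177, chromosome 3, 10026414 to 10101930), which marks the damaged site once it carries ubiquitin, was at 65.5, 65.5 and 69.1 CPM in control cells, against 104, 109 and 112 CPM in 4HC. The 4HC samples lay far above the controls in both genes. The log2 fold change was 0.73 for FANCI (standard error 0.0380, adjusted p = 3.73e-22) and 0.70 for FANCD2 (standard error 0.0444, adjusted p = 9.43e-19). The pair rose together, and the ratio of FANCI to FANCD2 in TPM (a level per transcript length that sums to 1000000 in a sample) was 1.75 ± 0.0627 in control and 1.84 ± 0.0510 in 4HC (SD, n = 3), with overlapping groups. UBE2T, the E2 enzyme that serves the pair, rose less, from 46.4, 44.9 and 47.7 CPM to 54.3, 51.8 and 53.8 CPM (log2 fold change 0.20, standard error 0.0514, adjusted p = 1.40e-03).

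The core complex was mixed. FANCA, FANCG and FAAP20 form a module of it. FANCG was at 46.6, 44.4 and 43.6 CPM in control cells and 67.2, 66.4 and 63.2 CPM in 4HC. FANCA was at 65.8, 67.3 and 72.4 CPM and then at 95.8, 89.6 and 91.1 CPM. FANCG and FANCA rose without overlap between the groups, by 0.55 and 0.43 on the log2 scale (adjusted p = 5.13e-13 and 5.52e-11). FAAP20 changed by 0.16, from 42.3, 47.4 and 44.7 CPM to 47.8, 54.6 and 47.4 CPM, and the groups nearly touched (adjusted p = 0.0251).

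FANCB, FANCL and FAAP100 form the catalytic module, in which FANCL is the E3 ligase. FANCB, an X-linked gene with few counts, rose from 7.46, 6.95 and 6.64 CPM to 8.75, 10.9 and 11.5 CPM (log2 fold change 0.56, standard error 0.114, adjusted p = 7.73e-05). FANCL was at 29.4, 30.4 and 29.5 CPM in control and at 33.8, 33.6 and 32.1 CPM in 4HC, a log2 fold change of 0.16 (adjusted p = 0.0334). FAAP100 did not pass the test, with means of 76.8 and 73.1 CPM. The 3 partners therefore had unlike values, and the TPM of FANCB over that of FAAP100 went from 0.0881 ± 0.00803 to 0.134 ± 0.0172 with no overlap between the groups.

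FANCC, FANCE and FANCF connect the core complex to the ID2 pair. FANCF (NCBI Gene 2188, chromosome 11, 22622890 to 22625841), the shortest of the 39 genes at 2.95 kb, was the only one that fell. It was at 12.1, 9.66 and 11.04 CPM in control cells, against 7.67, 8.39 and 9.43 CPM in 4HC (log2 fold change -0.37, standard error 0.107, adjusted p = 5.58e-03). The highest 4HC sample was just below the lowest control, and without control replicate 1 the log2 fold change was -0.29 and no longer passed (adjusted p = 0.0604). FANCC was at 45.5, 47.5 and 49.0 CPM in control and at 50.3, 50.4 and 55.4 CPM in 4HC (log2 fold change 0.14, adjusted p = 0.0388). FANCE was level, at 15.2 and 15.4 CPM on average. The calls of FANCC, FANCL and FAAP20 were weak, and with DESeq2 their adjusted p-values were 0.135, 0.141 and 0.107.

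None of the 3 anchors that hold the complex to DNA passed the test. FANCM, the translocase that recognizes the stalled fork, had means of 21.2 and 23.3 CPM (log2 fold change 0.14), and its partner FAAP24 had 7.56 and 8.996 CPM (log2 fold change 0.25, adjusted p = 0.0878). Without control replicate 3 the change of FAAP24 was 0.36 and passed (adjusted p = 0.0317). CENPS, a histone-fold protein, had 5.46 and 5.05 CPM, and its counts are uncertain, since the readthrough gene CENPS-CORT covers it on the same strand.

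**Figure D2:**
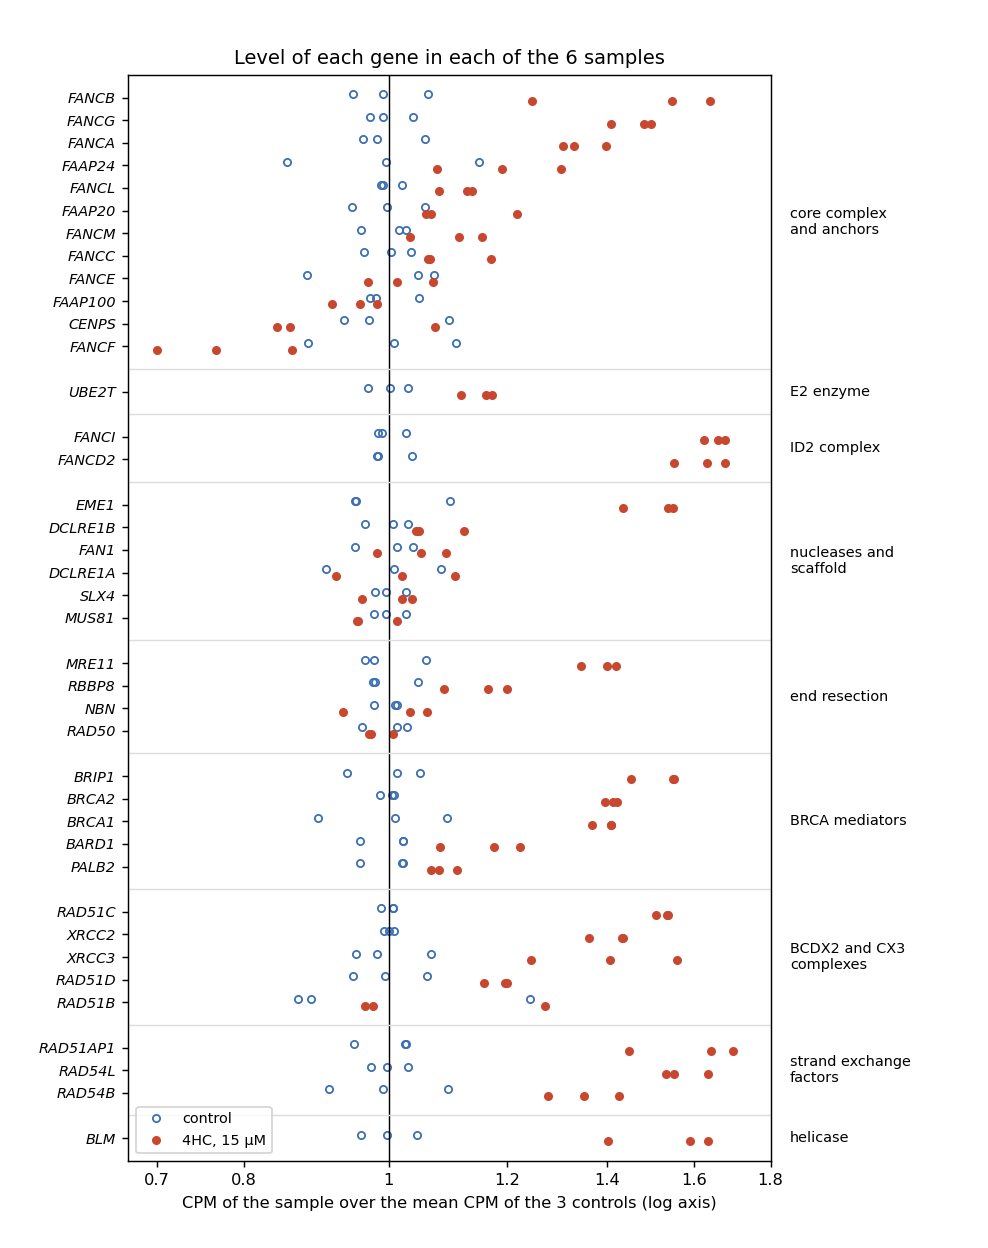
CPM of each gene in each sample over the mean CPM of the 3 controls (x axis, log scale), with controls as open and 4HC samples as filled points, grouped by role. The groups lie apart in the ID2 complex, the BRCA mediators, the strand exchange factors and the helicase, and overlap in 4 of the 6 nucleases and scaffold.

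Among the nucleases and their scaffold, only EME1 passed the test. EME1 (NCBI Gene 146956, chromosome 17, 50373220 to 50381483), the regulatory subunit of the MUS81 nuclease, was at 12.2, 12.2 and 14.1 CPM in control cells, against 19.7, 18.4 and 19.9 CPM in 4HC. It rose by 0.59 on the log2 scale (standard error 0.0823, adjusted p = 5.76e-08). MUS81, the catalytic subunit, had means of 81.8 and 79.6 CPM (log2 fold change -0.04). In TPM, EME1 was 0.159 ± 0.0148 of MUS81 in control and 0.245 ± 0.00950 in 4HC, with no overlap. The scaffold SLX4 was at 32.3 and 32.5 CPM. The nucleases FAN1 (38.2 and 39.8 CPM), DCLRE1A (28.996 and 29.5 CPM) and DCLRE1B (31.7 and 34.0 CPM), of which the latter pair trim the unhooked strand, did not pass the test either.

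In end resection the MRN complex was split. MRE11 (NCBI Gene 4361, chromosome 11, 94415578 to 94493908), its nuclease, was at 67.2, 61.3 and 62.1 CPM in control cells, against 85.4, 90.1 and 88.9 CPM in 4HC. It rose by 0.47 on the log2 scale (standard error 0.0463, adjusted p = 3.86e-12). RAD50, which holds the ends together, had means of 116 and 114 CPM, and NBN, which recruits the ATM kinase, 68.6 and 69.2 CPM, and their groups overlapped. The TPM of MRE11 over RAD50 was 0.779 ± 0.0306 in control and 1.10 ± 0.0254 in 4HC. RBBP8 (CtIP), which starts resection with MRN, rose from 93.5, 87.2 and 87.5 CPM to 97.4, 107 and 104 CPM (log2 fold change 0.20, adjusted p = 1.94e-04).

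Of the BRCA mediators, BRCA1, BRCA2 and the helicase BRIP1 rose by a similar factor. BRCA1 (NCBI Gene 672, chromosome 17, 43044295 to 43170245) was at 44.6, 36.6 and 41.2 CPM in control cells, against 55.8, 57.4 and 57.4 CPM in 4HC (log2 fold change 0.48, standard error 0.0559, adjusted p = 6.55e-10). BRCA2 (NCBI Gene 675, chromosome 13, 32315474 to 32400266), a mediator of strand exchange, was at 32.0, 32.1 and 31.4 CPM and then at 45.3, 45.0 and 44.4 CPM (log2 fold change 0.50, standard error 0.0555, adjusted p = 2.17e-10). The samples of a group were closer together in BRCA2 than in BRCA1, and in neither gene did the groups overlap. BRIP1, the helicase bound to BRCA1, rose from 64.8, 57.9 and 62.4 CPM to 89.6, 95.5 and 95.6 CPM (log2 fold change 0.60, adjusted p = 1.73e-15).

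BARD1 and PALB2 had smaller log2 fold changes than BRCA1 and BRCA2. BARD1, the other subunit of the BRCA1 ligase, was at 36.9, 34.6 and 36.9 CPM in control and at 39.1, 42.5 and 44.3 CPM in 4HC (log2 fold change 0.21, adjusted p = 2.43e-03). PALB2, which bridges BRCA1 and BRCA2, was at 29.2, 27.3 and 29.2 CPM and then at 30.8, 31.7 and 30.5 CPM. Every 4HC sample of PALB2 was above every control, but its log2 fold change of 0.12 did not pass (standard error 0.0608, adjusted p = 0.125). In TPM, BARD1 over BRCA1 was 1.02 ± 0.103 in control and 0.857 ± 0.0764 in 4HC, and BRCA2 over PALB2 was 0.362 ± 0.0145 and 0.471 ± 0.0118. Neither ratio overlapped between the groups. For BARD1 over BRCA1 the groups nearly touched, with the lowest control at 0.928 and the highest 4HC sample at 0.925.

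**Figure D3:**
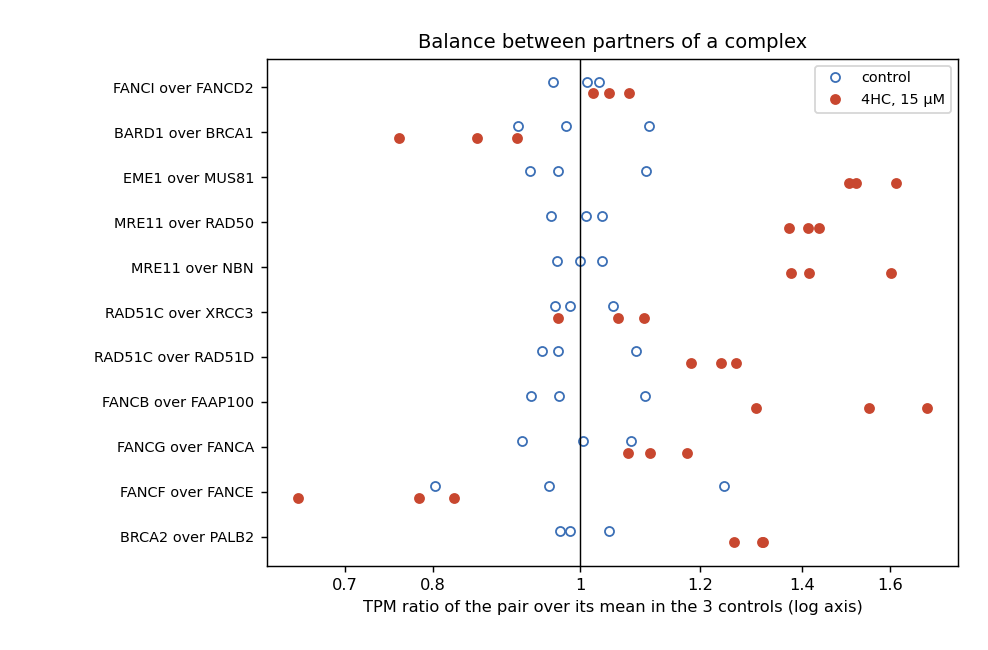
TPM ratio of 11 pairs of partners in each sample over the mean ratio of the 3 controls (x axis, log scale), with controls as open and 4HC samples as filled points. EME1 over MUS81, FANCB over FAAP100 and MRE11 over RAD50 or NBN shifted furthest to the right without overlap, and FANCI over FANCD2 stayed near 1.

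Over the 11 pairs in the plot of partner ratios, the groups did not overlap in 7 and overlapped in 4 (FANCI over FANCD2, RAD51C over XRCC3, FANCG over FANCA and FANCF over FANCE). Among single genes tested, 23.4% had every 4HC sample above every control and 21.9% below. The same share over ratios of other gene pairs was not computed. The pairs were chosen by hand, and MRE11 and RAD51C each appear more than once, so nothing is read from the count. With 3 samples against 3, the smallest p-value of an exact two-sided permutation test is 0.1, so the ratios are given as descriptions, and they were not tested in another way.

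Of RAD51B, RAD51C, RAD51D, XRCC2 and XRCC3, which form the BCDX2 and CX3 complexes, 4 of 5 rose. RAD51C (NCBI Gene 5889, chromosome 17, 58692573 to 58735611), the subunit that both complexes share, was at 53.3, 54.3 and 54.3 CPM in control cells, against 82.8, 83.0 and 81.5 CPM in 4HC (log2 fold change 0.61, standard error 0.0461, adjusted p = 5.25e-16). XRCC2 rose from 28.3, 28.1 and 27.9 CPM to 38.2, 40.2 and 40.3 CPM (log2 fold change 0.49). XRCC3, the partner of RAD51C in CX3, rose from 32.4, 31.4 and 35.2 CPM to 51.4, 46.4 and 41.1 CPM (log2 fold change 0.49). The 4HC samples were spread more widely in XRCC3 than in the other genes of these complexes that rose, but all were above the controls. RAD51D rose less, from 26.4, 28.1 and 25.1 CPM to 31.7, 31.8 and 30.7 CPM (log2 fold change 0.24, adjusted p = 1.40e-03), and did not pass with limma on log2 TPM (adjusted p = 0.0550 with a pseudocount of 1). RAD51B, the longest of the 39 genes at 910 kb, had means of 6.45 and 6.90 CPM and did not pass.

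All 3 strand exchange factors (RAD51AP1, RAD54L and RAD54B) rose. RAD51AP1 (NCBI Gene 10635, chromosome 12, 4538798 to 4560048), which stimulates the pairing of strands, was at 30.1, 30.0 and 27.8 CPM in control cells, against 42.4, 49.8 and 48.1 CPM in 4HC (log2 fold change 0.67, standard error 0.0606, adjusted p = 2.30e-13). RAD54L (NCBI Gene 8438, chromosome 1, 46247688 to 46278473), a motor protein of strand exchange, was at 27.4, 28.3 and 26.7 CPM and then at 42.6, 42.1 and 44.9 CPM (log2 fold change 0.65, standard error 0.0582, adjusted p = 1.75e-13). Its relative RAD54B rose from 23.3, 25.3 and 27.9 CPM to 32.6, 36.3 and 34.4 CPM (log2 fold change 0.43, adjusted p = 3.33e-07). Every 4HC sample was above every control in the 3 genes. BLM (NCBI Gene 641, chromosome 15, 90717327 to 90816165), the helicase mutated in Bloom syndrome, was at 27.1, 26.0 and 28.4 CPM and then at 38.1, 43.2 and 44.4 CPM (log2 fold change 0.62, standard error 0.0619, adjusted p = 5.58e-12). BLM, RAD51AP1 and RAD54L have their promoters printed above because their changes were among the largest, so their similar size follows from that choice.

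The pathway holds other genes, of which 38 were listed and 37 tested. Of these 15 rose, 2 fell and 20 did not pass, with a median log2 fold change of 0.07. The 5 with the largest changes all rose. HROB, a partner of the MCM8 and MCM9 helicase, changed by 0.73 (6.47, 7.26 and 6.46 CPM to 11.7, 9.81 and 11.9 CPM). The resection nucleases DNA2 and EXO1 changed by 0.61 and 0.47. RMI2, a subunit of the complex that works with BLM, changed by 0.46, and the resolvase GEN1 by 0.38. The genes that fell were the nuclease subunits ERCC4 (log2 fold change -0.19, adjusted p = 0.0176, with overlapping groups) and EME2 (log2 fold change -0.16, adjusted p = 5.85e-03), named after their values were seen. The enzyme that removes ubiquitin from FANCD2, USP1, and its partner WDR48 did not pass, and of the kinases ATM, ATR and CHEK1 none did. SLX1A and SLX1B are near-identical copies, so the counts of either are uncertain.

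Per transcript length the genes spanned a wide range. RAD51C was the most abundant, at 129.8 ± 4.36 TPM in control, followed by UBE2T at 123 ± 4.76 TPM and FAAP20 at 116 ± 3.28 TPM. At the other end were RAD51D, BRCA2 and FANCB, at 4.35 ± 0.230, 4.27 ± 0.0252 and 3.18 ± 0.256 TPM (SD, n = 3). The median of the 39 was 15.0 TPM, against 17.3 TPM over all genes tested. In the order of the control means, 27 of the 38 pairs of neighbours overlapped in their samples, so the exact rank of most genes cannot be read from 3 samples. Across the 39 genes the log2 fold change had a Spearman correlation of 0.03 with the log2 CPM in control and of 0.23 with the log2 gene length, as a description over genes that share the same 6 libraries.

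**Figure D4:**
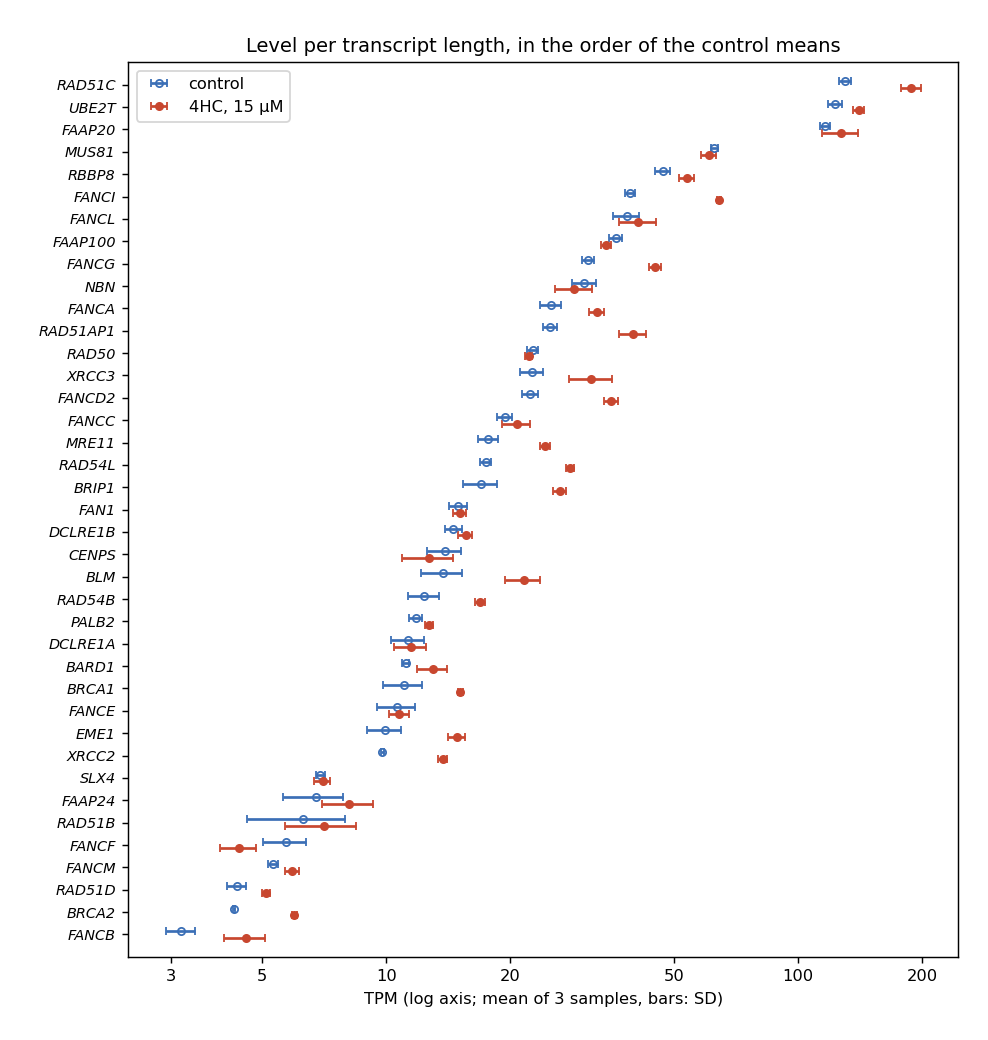
TPM of the 39 genes (x axis, log scale), mean ± SD of 3 samples per group, ordered by the control mean, with controls as open and 4HC as filled points. RAD51C, UBE2T and FAAP20 lie above 100 TPM in both groups, and FANCB is the lowest in control.

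Several of the genes start beside another coding gene on the opposite strand. In GENCODE release 29 a coding gene started within 1000 bp of the start of 17 of the 39 genes, on the opposite strand, and in 13 pairs both genes were tested. In 6 of these pairs the member rose. In 1 of these 6 pairs the neighbour also rose, in 1 the neighbour fell and in 4 it did not pass the test. Over all genes tested, 19.2% rose and 17.1% fell, so no link between neighbours is read from these counts. EME1 and MRPL27, whose starts are 6 bp apart, both rose (log2 fold changes 0.59 and 0.29). BRCA1 rose by 0.48 while NBR1, which starts 236 bp away, had a log2 fold change of -0.10 (adjusted p = 0.0418). The neighbours of RAD51AP1 (C12orf4), FANCB (MOSPD2), XRCC3 (ZFYVE21) and MRE11 (ANKRD49) had log2 fold changes of 0.12, -0.0034, -0.08 and 0.04. Of the pairs whose member did not rise, FANCF and GAS2 (log2 fold change -0.46, standard error 0.345) were both below 0, but GAS2 had few counts and did not pass. Among the tested neighbours in these pairs, only NHLRC2, beside DCLRE1A, passed the edgeR test (log2 fold change -0.13, adjusted p = 0.0368).

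**Figure D5:**
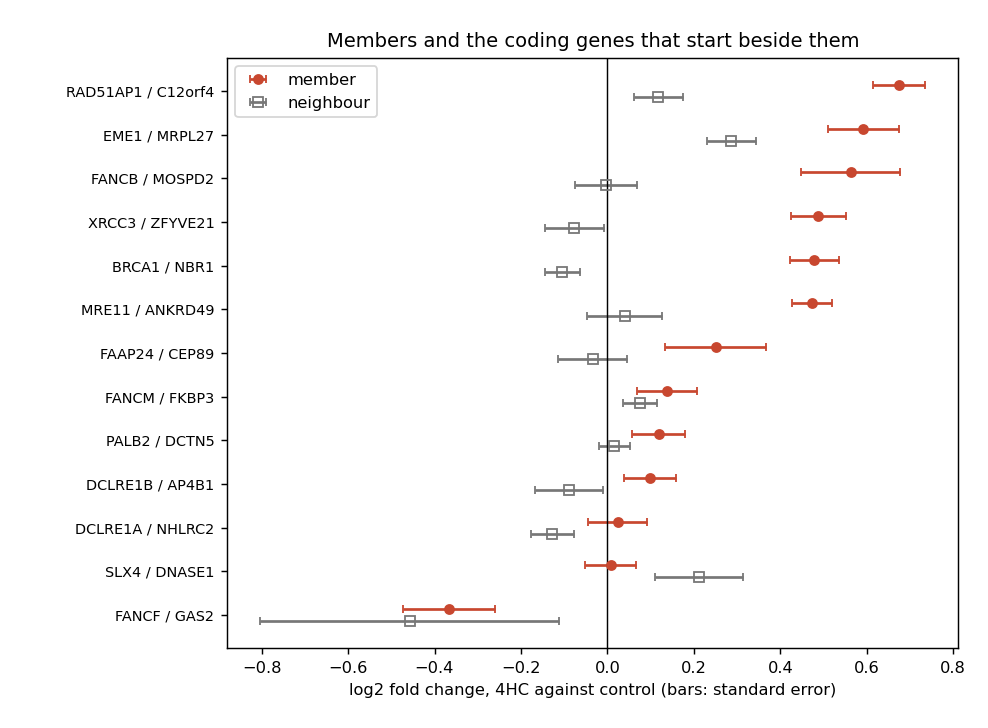
Log2 fold change with its standard error (x axis) of 13 members (filled circles) and of the coding gene that starts within 1000 bp on the opposite strand (open squares). In the 6 upper pairs the member lies between 0.47 and 0.67 and the neighbour between -0.10 and 0.29.

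Some members share bases with a gene on the other strand, and no source used here says whether the counting used strand, so reads of the shared stretch cannot be told apart. RAD54L shares 17278 bp with LRRC41 and EME1 shares 6425 bp with LRRC59, and both of these partners had a log2 fold change of -0.27, opposite to the member. FANCI shares 12064 bp with POLG (log2 fold change 0.06, adjusted p = 0.320), and XRCC3 shares 16641 bp with KLC1 (log2 fold change -0.06). MUS81 shares 4901 bp with CFL1, which had 18760 counts on average against 1320 of MUS81 (log2 fold change of CFL1 0.07). RAD50 and MUS81 are the denominators of the MRE11 and EME1 ratios above. RAD50, RAD51D and RAD54B share bases with a gene of the same strand (AC116366.3, RAD51L3-RFFL and FSBP), RAD50 over 90061 bp. FSBP had 41.8 counts on average. AC116366.3 and RAD51L3-RFFL had no deposited counts under these names, so no division of reads with them is shown. FANCD2, MRE11, RAD51AP1 and RBBP8 have pseudogenes in the annotation. Part of the reads of these genes and of RAD54B could have been divided.

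Transcripts gave less precise values than genes. The 39 genes had 222 transcripts in the table, and 158 were tested. Of these 8 passed, all higher in 4HC, against 1.29% of the 42216 transcripts tested, and 30 had an unadjusted p-value under 0.05. The count depended on every sample, since 0 or 1 transcript passed when any of the 6 samples was left out, and 25 passed with DESeq2. The FANCI transcript NM_001113378 was at 812, 674 and 616 counts in the controls and at 1322, 1182 and 1193 counts in 4HC (log2 fold change 0.81, adjusted p = 0.0434). It held 38.5% of the counts of FANCI in control and 40.9% in 4HC. The transcripts XM_017024914 of RAD51C (0.70), NM_006479 of RAD51AP1 (0.68), NM_001018115 of FANCD2 (0.62), NM_004629 of FANCG (0.55) and NM_012415 of RAD54B (0.54) had log2 fold changes close to those of their genes.

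Other genes of the cell cycle and of the damage response moved with the groups. Beside the counts that follow, 19.2% of all genes tested rose and 17.1% fell. All 22 listed p53 targets rose (median log2 fold change 0.83), and their summed level was 2753 to 2773 CPM in the controls and 5160 to 5227 CPM in 4HC. Of 16 G1/S genes 9 rose and 1 (MCM6) fell (median 0.18). Their sum was 2135 to 2187 CPM in the controls and 2759 to 2793 CPM in 4HC. Much of that rise lay in PCNA (means of 275 and 567 CPM) and RRM2 (245 and 437 CPM). Of 15 G2/M genes 3 rose and 9 fell (median -0.20). Their sums of 2766 to 2897 CPM and 2790.0 to 2859 CPM overlapped, since the abundant CDK1 (means of 587 and 701 CPM) and TOP2A (497 and 575 CPM) rose. Markers of other cell types (PTPRC, PECAM1, EPCAM, COL1A1 and ALB) summed to at most 4.53 CPM in any sample. The part of the cell cycle or of p53 in the changes of the Fanconi and recombination genes was not tested.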

How the data were processed

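Total RNA of 6 COV434 samples was sequenced, 3 control and 3 treated with 4HC. Reads were filtered by the authors (SOAPnuke) and analysed in the Dr. Tom system. The submitters' processing notes name HISAT2, Bowtie2, RSEM 1.3.1, DESeq2 1.4.5 and GRCh38.p13 without roles. The authors deposited an expected count per gene and transcript in each sample, not normalized, and 85.5% of the gene values were whole. The deposited TPM and FPKM values had been scaled by the authors to length and library size. The columns of the authors' own comparison (fold changes and p-values) were not used. The deposited gene coordinates joined distant loci for some genes, so positions came from GENCODE release 29 (GRCh38).

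After rounding, the expected counts were tested in R 4.3.3 by edgeR 4.0.16 (TMM, filterByExpr, quasi-likelihood test, condition as the only term), with Benjamini-Hochberg adjustment over all 12368 genes or 42216 transcripts tested and a threshold of 0.05. CPM values are TMM-normalized, and the standard error of a log2 fold change is its size over the square root of its F statistic. A sample with 0 counts allows up to 3 counts, 0.186 CPM in the smallest library. The biological coefficient of variation was 0.0277 for genes and 0.724 for transcripts. On simulated counts of 12292 genes, 99.0% of log2 changes of 1.5 and 80.0% of log2 changes of 0.5 were recovered, and 4.84% of the 186 calls were false. On 36539 simulated transcripts 16.5% of those changed by 1.5 and 3.70% of those changed by 0.5 were recovered, and 15.0% of the 20 calls were false. In each simulation 200 genes or transcripts were changed, a smaller share than passed in the data.

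The members, roles and lists were chosen with earlier results of these data known. All 39 members are named, with values in every sample for those that passed the threshold and for FANCD2, FANCI, BRCA1, BRCA2 and PALB2, and group means for the others. Of the other pathway genes, the 5 with the largest change of at least 0.3 on the log2 scale are named, and of transcripts up to 6 that passed with at least 20 counts on average. Promoters were read from a RefSeq table of GRCh38.p14. The alternatives were DESeq2 1.42.0, its size factors in edgeR, library size alone, no filter on low counts, at least 10 counts per sample, a replicate block, limma 3.58.1 on log2 TPM or FPKM with a pseudocount of 1 or 0.1, and leaving out each sample. Python 3.11.15, pandas 2.3.3 and matplotlib 3.10.9 were used.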

Additional observations from a re-analysis of the deposited data

How the results depend on the processing

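The number of members that rose was 20 to 24 under the settings other than leaving out a sample (24 as reported, 21 with DESeq2), and 21 to 23 when a sample was left out. Of the members' log2 fold changes under the former settings, 367 kept their direction and side of the threshold, 19 in 4 genes (FANCC, FANCL, FAAP20 and RAD51D) no longer passed and 4 of NBN changed sign. The count that fell was 0 to 1 when a sample was left out. Of the other pathway genes, the number that fell was 2 as reported, 1 with DESeq2, 1 and 1 with limma on log2 TPM (pseudocounts of 1 and 0.1), 0 and 0 with limma on log2 FPKM and 1 to 4 when a sample was left out. The median log2 fold change of the ID2 and recombination genes was 0.44 with limma on log2 TPM plus 1. The number of member transcripts that rose was 8 as reported, 25 with DESeq2, and 0 to 1 when a sample was left out. NBN, which did not pass under any setting, had log2 fold changes of -0.0821 and -0.0545 with limma on log2 TPM and FPKM plus 1, and of -0.0847 and -0.0573 with a pseudocount of 0.1. When a sample was left out it ranged from -0.0267 to 0.0612, FANCE from -0.0598 to 0.0755, SLX4 from -0.0144 to 0.0381, DCLRE1A from -0.0439 to 0.0884 and RAD51B from -0.0434 to 0.28, and none of these 5 passed. The causes were not tested.

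The samples shared only a replicate number. The correlations of same-numbered samples were 0.0087, 0.069 and 0.030, none over 0.1. With the replicate block 24 members rose and 1 fell, 14 and 2 of the other pathway genes did, and 0 of the member transcripts passed. The block changed no other count of calls by over 1.5 times.

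Depth limits FANCB, FANCF, FAAP24, CENPS and RAD51B, at 5.05 to 10.9 CPM, whose standard errors of 0.107 to 0.141 were the largest of the members. The smallest change that passed in a member was 0.14 (FANCC).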

Other observations

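Of the 158 tested transcripts of the members, 12 (7.59%) had a share of their gene's counts that did not overlap between the groups, against 11.4% of all 42216 transcripts tested, so no shift in the make-up of these genes is read from them. The 3 transcripts that follow were picked with their values in view. The RAD54L transcript XM_011542299 was at 1.23, 0 and 0 counts in the controls and at 71.5, 60.3 and 40.5 counts in 4HC. It held 8.16% ± 2.38 of the RAD54L counts in 4HC (SD, n = 3) and did not pass the test (adjusted p = 0.0568 in edgeR's quasi-likelihood test over all transcripts). For BRCA1, the transcript NM_007294 held 60.7% ± 12.99 of the counts in control and 76.2% ± 6.26 in 4HC, with no overlap between the groups. For SLX4, whose total did not pass the test, NM_032444 held 77.5% ± 0.760 in control and 84.5% ± 1.23 in 4HC. These shares are estimates that divide reads between transcripts with common exons, and were not tested.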
